A study of Mus musculus with 2 samples.

Results

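The interferon-inducible GTPases described here are 10 mouse genes, chosen from their families with earlier results of these data known. They include the immunity-related GTPase (IRG) genes Irgm1, Irgm2, Igtp, Iigp1, Tgtp1 and Tgtp2. The others are the guanylate-binding protein (GBP) genes Gbp2, Gbp3 and Gbp9, and the very large GTPase gene Gvin1. All 10 were found among the 24015 genes of the expression table. The study compared cultured mouse embryonic fibroblasts of genotype Adar2+/+ with fibroblasts of genotype Adar2-/-, by RNA-seq of polyadenylated RNA with 1 library per genotype. Adar2 is an enzyme that converts adenosine to inosine in double-stranded RNA. No cytokine treatment is given in the labels for either culture, and neither the deleted part of the gene nor the number of embryos behind a culture is stated. With 1 library per genotype no difference could be set against the spread between cultures, so no test between genotypes was made, and every interval covers counting error only.

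Adarb1, the gene that encodes Adar2, was not lower in the library labelled knockout: it had 18.4 RPKM (read counts divided by gene length and by library size) in WT-labelled cells and 25.8 RPKM in KO-labelled cells. A knockout that removes only some exons can leave the rest of the transcript to be counted, so this level checks neither label, and every direction given here rests on the labels. The deposited lists of edited sites ran in the direction of the labels, with 654 sites for the WT-labelled library and 110 for the KO-labelled one. Adar, a gene of the same family as Adarb1, was also lower, at 28.0 RPKM in WT-labelled cells and 18.7 RPKM in KO-labelled cells. Whether this bears on the number of sites was not tested. The library totals solved from the RPKM values were 9446911 reads for the WT-labelled library and 9546997 for the KO-labelled one. Fibroblast identity was read from 13 marker genes, all of which were expressed. Their summed level was 665 RPKM in WT-labelled cells and 688 RPKM in KO-labelled cells. This sum holds opposite differences, such as Dcn (29.7 and 12.3 RPKM) and Thy1 (9.40 and 72.1 RPKM). Of the 13, 11 were within 2-fold, as were 12219 of the 13867 genes that reached 1 RPKM in either library. No gene exceeded 107.0 RPKM in WT-labelled cells or 124.3 RPKM in KO-labelled cells. Whether this low ceiling brought the levels of abundant markers together was not tested.

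Interferons act through cell surface receptors, JAK kinases and STAT transcription factors. Interferon gamma acts mainly through a promoter element called the gamma-activated site (GAS), and type I interferon mainly through the interferon-stimulated response element (ISRE). IRG and GBP proteins are among the most strongly induced products of these pathways in mouse cells, fibroblasts included, where they assemble on the membrane of vacuoles that hold parasites or bacteria. IRG proteins come in a pair of kinds named after a short motif of the nucleotide-binding site: the GKS proteins (here Iigp1, Tgtp1 and Tgtp2) act as effectors on the vacuole, and the GMS proteins (Irgm1, Irgm2 and Igtp) sit on the cell's own membranes and hold the effectors in check.

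The promoters of these genes carry the interferon elements in different arrangements, and the sequences below are shown because 4 of them share 1 arrangement while their levels do not move alike. RefSeq promoter windows (build GRCm38.p6, 250 bases before to 50 bases after a start site, 300 bases in all) were matched by symbol for 7 of the 10 members: Irgm1, Irgm2, Igtp, Tgtp1, Tgtp2, Gbp2 and Gbp3. The windows were searched on both strands for the ISRE letters GAAANNGAAA and the GAS letters TTCNNNGAA. Each stretch runs 5′ to 3′ on the gene's strand, with 10 bases on either side of the matches, and capitals mark the matches.
Irgm1 (chr11:48871425-48871460, minus strand): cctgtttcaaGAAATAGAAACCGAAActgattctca
Irgm2 (chr11:58214892-58214932, plus strand): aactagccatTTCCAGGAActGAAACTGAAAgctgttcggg
Igtp (chr11:58199501-58199541, plus strand): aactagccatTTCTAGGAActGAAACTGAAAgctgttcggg
Tgtp1 (chr11:48992304-48992344, minus strand): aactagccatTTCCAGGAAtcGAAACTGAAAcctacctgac
Tgtp2 (chr11:49064263-49064303, minus strand): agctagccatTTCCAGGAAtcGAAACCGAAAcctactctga
Gbp2 (chr3:142620594-142620623, plus strand): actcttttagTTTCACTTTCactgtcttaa
Gbp3 (chr3:142559989-142560024, plus strand): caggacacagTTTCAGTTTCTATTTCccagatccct

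ISRE letters were in the windows of 7 of 7 members, against 3.44% of all 32851 windows of the table. GAS letters were in 4 of 7, against 8.30% of all windows. Among 11 related genes with a window, ISRE letters were in 7 and GAS letters in 4. In Irgm2, Igtp, Tgtp1 and Tgtp2 a GAS match stood 2 bases upstream of an ISRE match, an arrangement noticed in these windows and then counted over the table. It was in 5 of 32851 windows (0.0152%): those 4 and the window of Gm12185, another IRG gene. Irgm1 and Gbp3 each had 2 ISRE matches that overlap, on the gene's own strand in Irgm1 and on the other strand in Gbp3, and no GAS match. Gbp3 had a further RefSeq window that held neither. Gbp2 had 1 ISRE match. Gene copies that arose by duplication share flanking letters, as the lines for Irgm2 and Igtp show, so these windows are not independent of each other. A match is a string of letters and says nothing of binding in these cells.

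**Figure D1:**
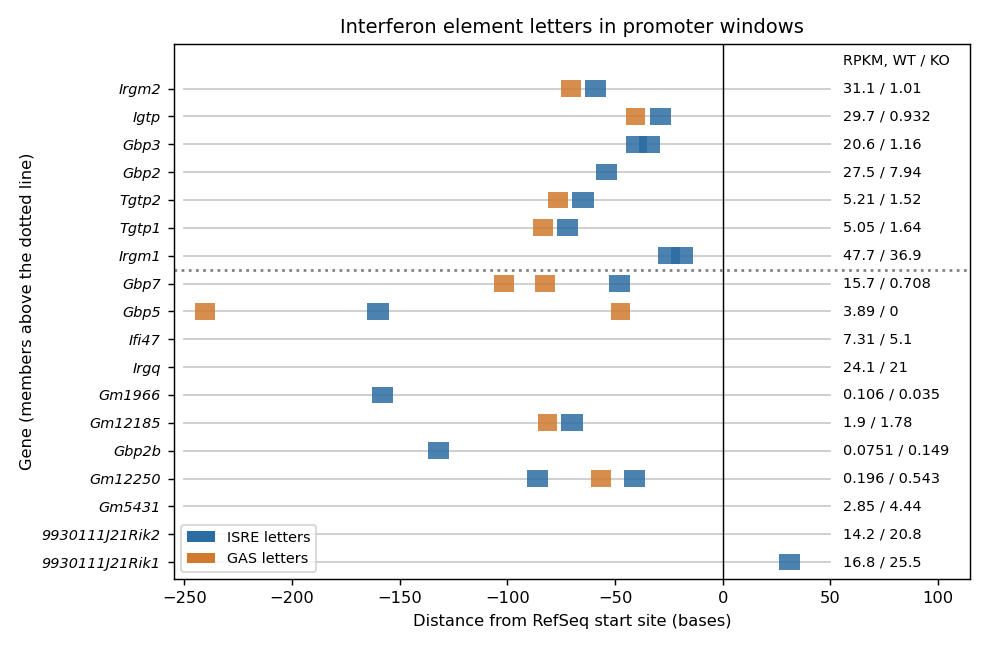
Positions of ISRE letters (blue) and GAS letters (orange) in RefSeq promoter windows of 7 member genes (above the dotted line) and 11 related genes (below it), as distance from the start site in bases, with the RPKM of the WT-labelled and KO-labelled libraries at the right. Irgm2, Igtp, Tgtp1, Tgtp2 and Gm12185 show the GAS match next to the ISRE match, with levels that range from 31.1 and 1.01 RPKM (Irgm2) to 1.90 and 1.78 RPKM (Gm12185).

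Most of the 10 GTPase genes were lower in KO-labelled cells. On the scale of log2((KO + 1)/(WT + 1)) of RPKM, 8 of the 10 were at least 2-fold lower, 1 was at least 2-fold higher (Gbp9) and 1 lay within 2-fold (Irgm1). As background, 7.46% of the 13867 compared genes were 2-fold lower or more by the same measure, and 4.42% were 2-fold higher or more. Compared genes are those reaching 1 RPKM in either library. Igtp and Iigp1 passed this minimum only through the WT-labelled library, and Gbp9 only through the KO-labelled one. Without a minimum, 8 of the 10 members were again at least 2-fold lower. The median log2 ratio of the members was -2.12, and that of all 13867 genes was 0.01. Since the members were chosen with earlier results known, their count does not stand for the families. With the further family genes added, 6 of 13 compared IRG genes (median -0.45) and 5 of 7 compared GBP genes (median -1.67) were at least 2-fold lower. These counts leave out genes under the minimum, and Gm4951, Gbp5 and Gbp7 passed it only through the WT-labelled library. Without a minimum, 1 of the 9 further IRG genes above 0 was at least 2-fold lower (median -0.06). Likewise, 3 of the 8 further GBP genes were (median -0.44). In the WT-labelled library the members summed to 230 RPKM, with 7 of 10 at 20 RPKM or more. In the KO-labelled library they summed to 61.0 RPKM. Irgm1 alone made up 20.7% of the first sum and 60.5% of the second. Without Irgm1 and Gbp9, the 8 other members ranged from 5.05 to 33.0 RPKM in WT-labelled cells and from 0.235 to 7.94 RPKM in KO-labelled cells. In bulk RNA, fewer cells that express a gene and less RNA per cell cannot be told apart.

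**Figure D2:**
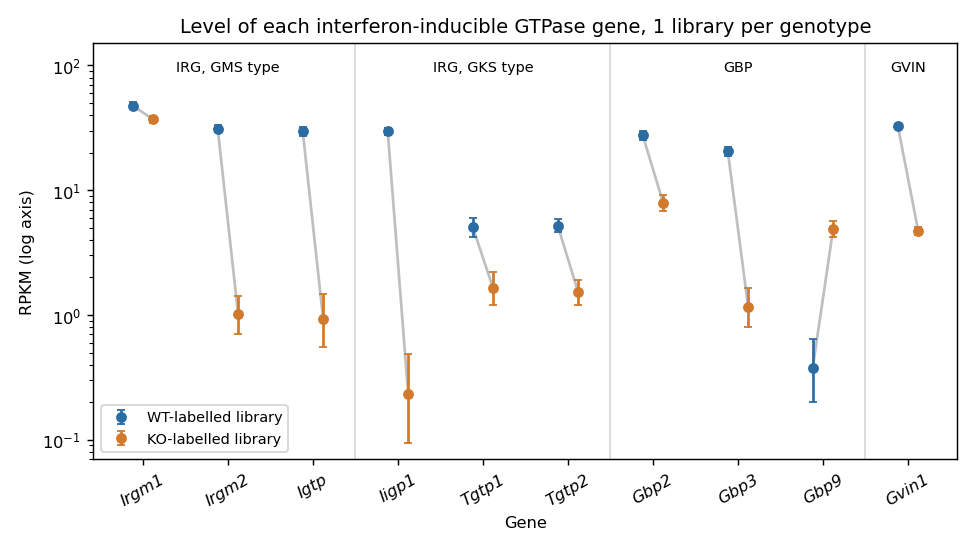
RPKM on a log axis for each of the 10 genes in the WT-labelled (blue) and KO-labelled (orange) library, grouped by subfamily, with bars for the exact Poisson 95% interval, which covers counting error only. All genes but 1 slope down from WT-labelled to KO-labelled, Irgm1 least (47.7 to 36.9 RPKM) and Iigp1 most (29.8 to 0.235 RPKM), and Gbp9 slopes up (0.379 to 4.90 RPKM).

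The GMS regulators split. Irgm1, also known as LRG-47, was the most abundant member in both libraries, at 47.7 RPKM (1004 reads) in WT-labelled cells and 36.9 RPKM (785 reads) in KO-labelled cells. That is 1.29-fold lower, and the 95% counting interval of its log2 ratio, taken on reads per total, was -0.51 to -0.23. The difference is beyond counting error and small beside that of the other regulators. The highest level of any gene in the table was 107.0 RPKM in WT-labelled cells and 124.3 RPKM in KO-labelled cells. Whether this low ceiling narrows the ratios of abundant genes, such as Irgm1 and several fibroblast markers, was not tested. Irgm2 had 31.1 RPKM (1033 reads) in WT-labelled cells and 1.01 RPKM (34 reads) in KO-labelled cells, 30.7-fold lower (log2 interval -5.48 to -4.45). Igtp, the gene of Irgm3, had 29.7 RPKM (568 reads) in WT-labelled cells and 0.932 RPKM (18 reads) in KO-labelled cells, 31.9-fold lower (log2 interval -5.76 to -4.32). Irgm2 and Igtp had overlapping intervals in each library, so the levels of this pair did not differ beyond counting error. Irgm1 differed from both in KO-labelled cells by more than counting error. Igtp and Irgm2 lie on the same strand of chromosome 11 and overlap in the GENCODE M21 annotation, and 11.8% of the 50-base words of the Igtp transcripts also occur in Irgm2. Irgm1 shared 0.310% of its words with other genes.

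The GKS effectors were all lower in KO-labelled cells, Iigp1 by far the most. Iigp1, the gene of Irga6, which coats the vacuole of Toxoplasma, had 29.8 RPKM (878 reads) in WT-labelled cells. In the KO-labelled library it had 0.235 RPKM, which is 7 reads. Its level was 127-fold lower, with a log2 interval of -8.30 to -5.94, and it ranked 12 from the lowest of the 13867 compared genes by log2 ratio. Iigp1 matched Igtp and Irgm2 in WT-labelled cells within counting error, and lay below both in KO-labelled cells, where its interval of 0.0944 to 0.484 RPKM ended below that of Igtp (0.552 to 1.47 RPKM).

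Tgtp1 and Tgtp2, near-identical genes of Irgb6, another effector loaded early onto vacuoles, were low in both libraries. Tgtp1 had 5.05 RPKM (134 reads) in WT-labelled cells and 1.64 RPKM (44 reads) in KO-labelled cells, 3.08-fold lower (log2 interval -2.15 to -1.12). Tgtp2 had 5.21 RPKM (277 reads) in WT-labelled cells and 1.52 RPKM (82 reads) in KO-labelled cells, 3.41-fold lower (log2 interval -2.15 to -1.41). The pair did not differ from each other beyond counting error in either library. Of the 50-base words of Tgtp1, 79.4% also occur in Tgtp2, and the table gives Tgtp2 a length of 5633 bases against 2809 for Tgtp1, so the same reads may stand behind both and they are best read as 1 measurement. Irgm2 and Igtp, whose promoter windows carry the same GAS and ISRE arrangement, differed far more, and the log2 intervals of the Tgtp genes did not overlap theirs. Tgtp1 overlaps Gm12185 on the same strand in the GENCODE annotation. Of the words of Tgtp1 and Tgtp2, 5.64% and 4.88% occur in Gm12185. Whether reads of Gm12185 entered the Tgtp values and narrowed their ratios was not tested.

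The GBP genes went both ways. GBP proteins bind and hydrolyse GTP, assemble in layers on the membranes of pathogens and their vacuoles, and act with the IRG proteins. Gbp2, a member of the chromosome 3 cluster that targets vacuoles, had 27.5 RPKM (638 reads) in WT-labelled cells and 7.94 RPKM (186 reads) in KO-labelled cells. It was 3.47-fold lower (log2 interval -2.04 to -1.56) and, after Irgm1, the most abundant member in KO-labelled cells. Gbp3, its neighbour in the cluster, had 20.6 RPKM (579 reads) in WT-labelled cells and 1.16 RPKM (33 reads) in KO-labelled cells, 17.7-fold lower (log2 interval -4.70 to -3.64). The intervals of Gbp2 and Gbp3 did not overlap. Gbp3 thus differed more than Gbp2, from a lower WT-labelled level.

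Gbp9, a gene of the chromosome 5 cluster, was the only member with the higher level in KO-labelled cells. It had 0.379 RPKM (13 reads) in WT-labelled cells and 4.90 RPKM (170 reads) in KO-labelled cells, 12.9-fold higher (log2 interval 2.88 to 4.63). Its level in KO-labelled cells was 3rd of the 10 members, and its interval there (4.19 to 5.70 RPKM) overlapped that of Gvin1 (4.41 to 5.07 RPKM). Gbp9 overlaps Gbp4 and Gbp8 on the same strand in the GENCODE annotation, and 8.05% of its 50-base words occur in other genes. Gbp4 had 5 reads in WT-labelled cells and 18 in KO-labelled cells, and Gbp8 had 4 and 6. How reads were counted where these genes overlap is not given in the sources used here. Gbp9 passed the minimum of 1 RPKM only through the KO-labelled library.

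Gvin1, which encodes a giant GTPase of little known function, had 33.0 RPKM (5634 reads) in WT-labelled cells and 4.73 RPKM (817 reads) in KO-labelled cells. It was 6.97-fold lower (log2 interval -2.91 to -2.69). Its neighbour and near copy Gm4070 had the same 5634 and 817 reads, over a length of 18072 bases against 18078 for Gvin1. Of the 50-base words of Gvin1, 98.3% occur in Gm4070. The values of Gvin1 and Gm4070 are therefore read as 1 measurement under 2 names. Gm8979, a further copy on chromosome 7, had 324 and 36 reads (log2 interval -3.72 to -2.69), and Gm17757 had 3.15 and 0.145 RPKM. Of the words of Gm8979, 85.8% occur in other genes and 27.3% in Gvin1, so its reads may not be separate from those of Gvin1. Gm1966 had 9 and 3 reads, too few to tell the libraries apart.

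By subfamily, the median log2 ratio on the RPKM + 1 scale was -3.99 for the 3 GMS genes, -1.30 for the 3 GKS genes, -1.67 for the 3 GBP genes and -2.57 for Gvin1. The medians do not set the subfamilies apart, since the ranges of the 3-gene subfamilies overlapped. Irgm1 among the GMS genes was the 1 member within 2-fold. The ratio nearest to 0 or above was -0.36 among the GMS genes (Irgm1), -1.20 among the GKS genes (Tgtp1) and 2.10 among the GBP genes (Gbp9). In the authors' deposited table, the generalized fold change (a log2 value shrunken toward 0 where reads are few) was at most -1 for 7 of the 10 members, against 5.60% of the 13867 compared genes. It was at least 1 for Gbp9 alone (2.78), against 3.21%. Tgtp1 just missed the first limit there, at -0.99, and Irgm1 stood at -0.16.

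The order of the levels also changed between the libraries. In the WT-labelled library Irgm1 came first, followed by Gvin1, Irgm2, Iigp1, Igtp and Gbp2 between 33.0 and 27.5 RPKM, a run in which neighbours had overlapping intervals. Gbp3, the Tgtp genes and Gbp9 followed, each step beyond counting error. In the KO-labelled library Irgm1 was first by a wide margin, then Gbp2, then Gbp9 and Gvin1 together. The levels from Tgtp1 down to Igtp lay between 1.64 and 0.932 RPKM with overlapping neighbours, and Iigp1 was last.

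The rest of the IRG family was mixed. Of 14 further IRG symbols looked up, 10 were in the table and 7 had at least 1 RPKM in a library. Of these 7, 1 was at least 2-fold lower (Gm4951, at 4.12 RPKM and 0.0396 RPKM) and 6 lay within 2-fold, with a median log2 ratio of -0.06. Gm4951 had 103 reads in WT-labelled cells and 1 in KO-labelled cells (log2 interval -12.02 to -4.19). Its neighbour on chromosome 18, F830016B08Rik, was under the minimum of 1 RPKM, with 29 reads and 0 reads. The 95% counting interval of its log2 ratio ended at -2.90, with no lower end because the KO-labelled count was 0. Iigp1 lies in the same cluster.

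On chromosome 11, by contrast, no further compared IRG gene was 2-fold lower. The tandem IRG genes 9930111J21Rik1 and 9930111J21Rik2 had 16.8 and 14.2 RPKM in WT-labelled cells and 25.5 and 20.8 RPKM in KO-labelled cells. Their log2 intervals were 0.45 to 0.75 and 0.40 to 0.70. They share most of their sequence (80.4% of the words of the first occur in the second), so they are not independent values. Gm5431 had 2.85 and 4.44 RPKM (log2 interval 0.22 to 1.06). Gm12185, whose window holds the GAS and ISRE arrangement of its neighbour Tgtp1, had 1.90 and 1.78 RPKM. Its log2 interval of -0.53 to 0.34 includes no difference. Gm12185 overlaps Tgtp1 and 9930111J21Rik1 on the same strand in the GENCODE annotation, and 19.5% of its 50-base words occur in other genes. Its value may therefore hold reads of its neighbours. Ifi47, the gene of the effector Irgd, had 7.31 and 5.10 RPKM (139 and 98 reads; log2 interval -0.91 to -0.14), close to the small difference of Irgm1. Gm12250, the gene of Irgb10, had 5 and 14 reads, an interval that includes no difference. Irgq, an IRG relative without interferon control, had 1396 and 1225 reads (log2 interval -0.32 to -0.09), and Irgc1, a testis gene, was listed at 0 in both.

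The remaining GBP genes that reached the minimum were all lower in KO-labelled cells, to different degrees. On chromosome 3, Gbp7 had 15.7 and 0.708 RPKM, 22.2-fold lower (log2 interval -4.98 to -4.01), much like Gbp3, with which it shares 2.24% of its words. Gbp5, which promotes inflammasome assembly, had 111 reads in WT-labelled cells and 0 in KO-labelled cells, with a log2 interval that ended at -4.90. On chromosome 5, Gbp6 had 18.9 and 5.82 RPKM (log2 interval -1.91 to -1.48) and Gbp10 had 9.96 and 4.54 RPKM (-1.42 to -0.85). Gbp10 shares 73.3% of its words with Gbp6, so reads may be split or shared between these 2. Gbp2b, Gbp4, Gbp8 and Gbp11 had 18 reads or fewer in each library and were under the minimum of 1 RPKM. Among them, the interval of the log2 ratio excluded 0 only for Gbp4 (0.35 to 3.62), in the same direction as Gbp9. Gbp4 overlaps Gbp9 on the same strand, so its reads may not be separate. The authors' generalized fold change for Gbp4 was 0. Of the 4 further GBP genes compared, 3 were at least 2-fold lower, and the median log2 ratio was -1.92. Gbp5 and Gbp7 passed the minimum only through the WT-labelled library, and without a minimum the median over all 8 was -0.44.

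**Figure D3:**
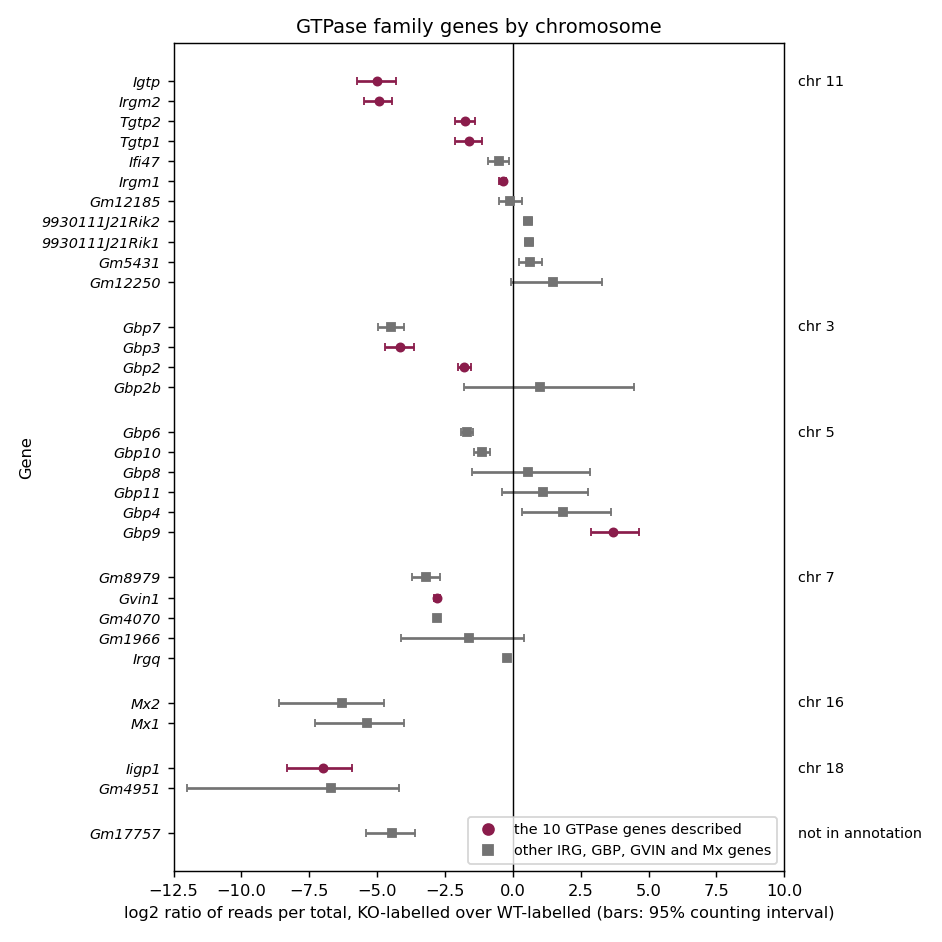
Log2 ratio of reads per total (KO-labelled over WT-labelled) with its 95% counting interval for the 10 GTPase genes (red circles) and related genes (grey squares), by chromosome. Genes with 0 reads in a library (Gbp5, F830016B08Rik and Irgc1) are left out. Chromosome 3 holds Gbp7, Gbp3 and Gbp2 at or below -1.79 and Gbp2b with an interval that spans 0, chromosome 11 runs from Igtp at -5.00 to positive values, and chromosome 5 from Gbp6 at -1.70 to Gbp9 at 3.69.

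The Mx genes, dynamin-like GTPases that block virus replication and are induced by type I interferon, were lower too. Mx1 had 5.91 RPKM (166 reads) in WT-labelled cells and 0.141 RPKM (4 reads) in KO-labelled cells. Mx2 had 10.3 RPKM (236 reads) and 0.130 RPKM (3 reads). Large GTPases outside interferon control stayed close: of 10 atlastin, dynamin, mitofusin and Opa1 genes, none was 2-fold apart in either direction, and the median log2 ratio was 0.06. The ends at 5 RPKM or more were Atl1 (5.48 and 2.86 RPKM) and Dnm1l (48.5 and 46.5 RPKM) on the lower side, and Atl3 (43.4 and 48.2 RPKM) and Mfn1 (16.9 and 19.3 RPKM) on the higher side.

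The pathways that lead to the GTPase genes held lower genes and genes that stayed close. Of 14 genes of the interferon gamma pathway, 11 were compared, 2 were at least 2-fold lower, and the median log2 ratio was -0.23. Nlrc5, an inducible transactivator of class I genes, had 8.20 and 0.513 RPKM. The highest ratios in that list were those of Socs3 (32.3 and 34.7 RPKM) and Irf1, a first-wave activator of IRG and GBP genes, at 12.6 and 16.3 RPKM (log2 interval 0.18 to 0.57). Irf1 thus did not go with most of the GTPase genes. The receptor gene Ifngr1 had 35.1 and 36.4 RPKM. Of 10 genes of the type I pathway, 4 were at least 2-fold lower, and the median log2 ratio was -0.49. The lowest were Usp18, which restrains receptor signalling, at 22.6 and 0.473 RPKM, and Irf7, at 39.1 and 2.08 RPKM. The highest ratios in that list were those of Tyk2 (20.1 and 17.6 RPKM) and Irf3 (19.8 and 19.5 RPKM).

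Targets that prefer interferon gamma were few in these cells. Of 11 such genes, 5 were compared, with 3 at least 2-fold lower, 1 at least 2-fold higher and a median log2 ratio of -1.03. The median was -0.53 over the 9 genes above 0 without a minimum. With a pseudocount of 5 RPKM it was -0.46, with 1 gene at least 2-fold lower and 0 higher. Cxcl10, a T cell chemokine also induced by type I interferon, had 33.0 and 11.3 RPKM, and Cd74, the invariant chain, had 17.2 and 7.92 RPKM. Socs1 had 29.9 and 20.4 RPKM, and Nos2, the inducible nitric oxide synthase gene, had 1.83 and 5.15 RPKM. Cd274 had 58 and 6 reads (log2 interval -4.79 to -2.08). Cxcl9, under the minimum of 1 RPKM, had 23 and 0 reads, with a log2 interval that ended at -2.54. Ciita, H2-Aa and H2-Eb1 had few reads, with intervals that include no difference. Ido1 and H2-Ab1 were listed at 0 in both libraries. Ifng itself was listed at 0 in both.

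Autophagy and GTPase targeting genes, among them the conjugation genes whose products guide IRG and GBP proteins to vacuoles, were close in both libraries. Of 18 genes, none was 2-fold apart in either direction and the median log2 ratio was -0.02. Their ends were Atg10 (13.6 and 8.98 RPKM) and Atg12 (35.7 and 28.4 RPKM) on the lower side, and Ulk1 (24.3 and 28.2 RPKM) and Traf6 (13.1 and 18.7 RPKM) on the higher side.

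**Figure D4:**
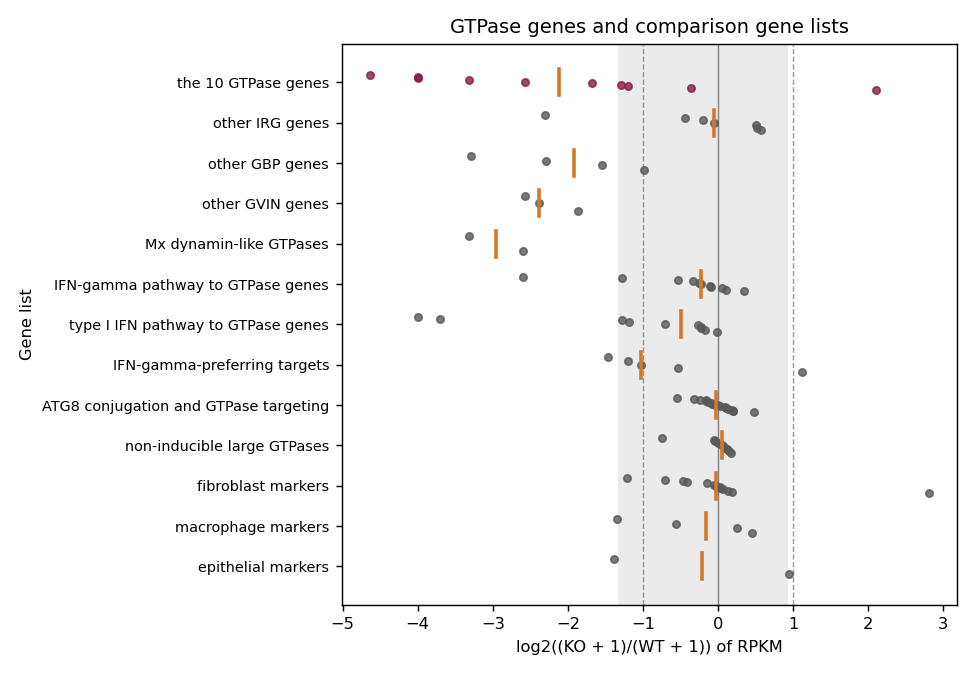
Log2((KO + 1)/(WT + 1)) of RPKM for each compared gene (dots) and the median (orange bar) of the 10 GTPase genes and of the comparison lists with at least 2 compared genes. Grey shading spans the 5th to 95th percentile of all compared genes (-1.32 to 0.92), the solid line is their median and dashed lines mark 2-fold. The GTPase genes have a median of -2.12 and a single gene on the right, Gbp9. The list of autophagy conjugation and GTPase targeting genes and that of non-inducible large GTPases lie between the dashed lines.

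Most markers of other cell types were low, Cd14 excepted. Macrophages express IRG and GBP genes strongly; of 11 macrophage markers, 10 were in the table and 4 were compared, and their summed level was 33.8 RPKM in WT-labelled cells and 35.4 RPKM in KO-labelled cells. Emr1 was listed at 0 in both, Ptprc had 4 reads and 0 reads, and Csf1r had 64 reads and 3 reads. Mrc1, a mannose receptor gene, was lower as well, with 45 and 4 reads (log2 interval -5.44 to -2.05). Itgam (6 and 1 reads) and Fcgr1 (4 and 1 reads) had intervals that include no difference. Most of the sum was Cd14 (19.7 and 23.7 RPKM), Cd68 (5.15 and 7.40 RPKM) and Lyz2 (5.91 and 3.67 RPKM). The 6 endothelial markers summed to 3.998 RPKM in WT-labelled cells and 0.409 RPKM in KO-labelled cells, with Tie1 and Emcn at 0 in both. The 7 epithelial markers summed to 2.41 and 1.77 RPKM, a sum that holds opposite differences. Cdh1, the E-cadherin gene, had 75 and 3 reads (log2 interval -6.97 to -3.06), and the keratin gene Krt8 had 1 and 18 reads (log2 interval 1.49 to 9.54). The 9 lymphocyte markers summed to 0.514 and 0.618 RPKM, with Cd3g, Cd8a, Ncr1 and Nkg7 at 0 in both. The part of macrophage, endothelial or epithelial cells in the GTPase values was not tested. Among the fibroblast markers Dcn (29.7 and 12.3 RPKM) and Thy1 (9.40 and 72.1 RPKM) were the 2 that differed by at least 2-fold, so the cultures also differed in genes outside the interferon pathways.

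No listed edited site lay in a gene of these families. Of the 654 and 110 listed sites, 0 and 0 were assigned to the 10 members, and likewise 0 and 0 to any of the IRG, GBP, GVIN and Mx genes named here. Absence from these lists does not show that a transcript was unedited. The genes outside the families whose pair of levels came nearest to the members' median pair (2 libraries only) were Tox (25.8 and 1.54 RPKM), Rnf144a (23.4 and 1.66 RPKM) and Ch25h, the gene of an interferon-inducible cholesterol hydroxylase, at 22.9 and 1.63 RPKM.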

How the data were processed

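RPKM values of 1 WT-labelled and 1 KO-labelled library came from a table deposited by the authors, whose columns are those of the GFOLD tool, per the file headers. It also gave the authors' log2 fold change and generalized log2 fold change, and an empirical FDR (a p-value-like column) that the authors' file lists at 1 in every row and that was not used. STAR 2.4.0d, SAMtools and build mm9 are named in the submitters' processing notes without a role. For the annotation, the counting rule and strand use, nothing is given in the sources used here. The deposited editing files give counts of reads and mismatches per site and the editing level as a fraction, per the file headers.

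The authors' log2 fold change equals log2 of (KO reads + 1)/(WT reads + 1) plus a constant. With the RPKM values this gave whole reads: a single pair of read numbers returned the printed digits of 96.5% of 17981 genes above 0. The remainder had several solutions (620) or none (2). Values had to match within about the rounding of the last printed digit. This tolerance was set after a looser one had left more genes with several solutions. The method was tested on simulated data. Genes that reached 1 RPKM in either library were compared as log2((KO + 1)/(WT + 1)), a scale that understates differences of low genes. Some passed that minimum only through the WT-labelled library, among them Igtp, Iigp1, Gm4951, Mx1, Mx2, Nlrc5 and Usp18. Intervals of read ratios are exact 95% Clopper-Pearson intervals conditional on the sum. Intervals of levels are exact Poisson. Shared 50-base words were counted in GENCODE M21 transcripts. Members and 14 gene lists were chosen with earlier results of these data known. Named genes are Adarb1, all members, all listed family genes, the 2 highest and 2 lowest of each other list at 5 RPKM or more, and the 3 nearest non-members; other genes named were chosen after their values were seen. The planned Fisher test of edited sites was not applicable, as no member held a site. One gene of the pathway lists is not reported here. Python 3.11.15, SciPy 1.17.1 and pandas 2.3.3 were used.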

Additional observations from a re-analysis of the deposited data

How the results depend on the processing

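With 1 library per genotype, no replicate could be left out, and no paired analysis was possible because the labels give no replicate numbers. Under 9 alternatives, the count of members at least 2-fold lower ranged from 6 to 8 and their median log2 ratio from -1.65 to -2.57. No called value changed direction. A pseudocount of 5 RPKM put Tgtp1 (-0.60), Tgtp2 (-0.65) and Gbp9 (0.88) within 2-fold, moved the medians to -2.55 (GMS), -0.65 (GKS) and -1.96 (Gvin1), and left 13 in place of 21 genes of the comparison lists at least 2-fold lower. The GMS median was -4.81 with a pseudocount of 0.1 RPKM and -4.90 from reads plus 1 per total. A minimum of 5 RPKM dropped Gbp9 and moved the GBP median to -2.50. Summing Tgtp1 and Tgtp2 moved the GKS median to -3.04, since 2 genes then remain. Differences resting on few reads (Iigp1, 7; Igtp, 18) have wide intervals.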
